A study of Mus musculus with 29 samples.

Results

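Retinoic acid signalling and Stra8, the meiotic gene it acts on in fetal germ cells, were described through 9 listed genes of mouse ovaries, out of 51912 gene IDs measured. Members were chosen by name, with earlier results of these data known. They were Aldh1a1, Aldh1a2 and Aldh1a3 (synthesis), Cyp26b1 (breakdown), Stra6 (uptake), Crabp1 and Crabp2 (binding), Rarb (receptor) and Stra8 (response), and each matched 1 gene ID. Bulk RNA sequencing was done on ovaries dissociated with papain from wild-type (Cdkn1b +/+) and Cdkn1b -/- mice, the latter lacking p27Kip1, an inhibitor of cyclin-dependent kinases. The youngest ovaries were of embryonic day 13.5 (E13.5) and the next of day 18.5 (E18.5), both before birth. Postnatal day 8 (PND8) and adults of 12 weeks (12wk) followed. Wild type had 4 libraries at every age, and Cdkn1b -/- had 4 at E18.5 and 3 (numbered 1, 3 and 4) at each other age, 29 in all. The mutation is carried by every cell of the animal, so an effect in the ovary cannot be assigned to 1 cell type. The labels do not say that replicates came from separate animals, so p-values measure the spread between these libraries, which may be technical. In whole ovaries, fewer cells of a type and less RNA per cell cannot be told apart.

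Retinoic acid is a vitamin A derivative that is made and destroyed close to where it acts. Retinol enters cells, helped in some tissues by the membrane protein STRA6, and is oxidised to retinal by retinol dehydrogenases. The ALDH1A enzymes then turn retinal into retinoic acid, and CYP26 enzymes oxidise retinoic acid for removal. CRABP proteins bind it in the cytoplasm, and RAR receptors, paired with RXR receptors on DNA, carry its effect to target genes, Rarb itself being a classical target. In the fetal gonad, STRA8 appears in germ cells as they enter meiosis, retinoic acid can induce it, and CYP26B1 keeps it low in the fetal testis.

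The receptor pair binds repeats of a short half-site, and the stretches that hold such letters upstream of Stra8 and Rarb show the sequences meant by this. The 250 bases before each RefSeq gene start (GRCm38.p6) were searched on both strands for AGGTCA or AGTTCA or GGGTCA or GGTTCA, and for direct repeats of these with 1, 2 or 5 bases between, which overlap the single half-sites. Capitals mark the half-sites in the 30 bases printed, each 5′ to 3′ on the gene's strand. The Stra8 stretches lie at chr6:34920742-34920771 and chr6:34920898-34920927 (plus strand), and the Rarb stretch at chr14:16575506-16575535 (minus strand).
Stra8, half-site 194 to 189 bases before the start: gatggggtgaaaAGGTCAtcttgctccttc
Stra8, half-site 38 to 33 bases before the start: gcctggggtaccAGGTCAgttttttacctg
Rarb, direct repeat with 5 bases between, 53 to 37 bases before the start: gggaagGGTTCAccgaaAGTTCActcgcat
Of 32851 windows of 27025 genes, 38.6% held at least 1 half-site, 9.75% at least 2 and 0.0883% (29 windows) a direct repeat with 5 bases between. A window was found for 7 of the 9 members, with 11 windows in all, and 3 of these windows held a half-site: those of Stra8 and Rarb and 1 of Aldh1a1. These are matches of letters and no measurement of binding. In GENCODE M21 both printed genes have transcripts whose exons cover these stretches, so the windows are upstream of the RefSeq starts only.

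Totals ran from 14095601 to 48213177 counts per library, and 3 counts, taken as the floor of detection, equal 0.0622 to 0.213 CPM. Levels below are CPM, each gene's counts scaled to a common library total, on 1 scale for all 29 libraries, and fold changes come from the fit of each comparison. Cdkn1b was lower in every Cdkn1b -/- library than in any wild-type library of its age, with the ranges 4.29 to 4.75 against 19.1 to 26.1 CPM at E13.5, 9.44 to 15.6 against 95.2 to 123 CPM at E18.5, 65.0 to 79.8 against 133 to 173 CPM at PND8, and 42.1 to 56.2 against 124 to 264.5 CPM at 12wk. It was called at the first 3 ages and not at 12wk (log2 fold change -1.85, SE 0.31, adjusted p 0.211, edgeR), and the fold was smallest at PND8 (-1.06, SE 0.10, adjusted p 0.0216, edgeR). Granulosa markers were present (Foxl2, 4.19 to 530 CPM over all libraries), and the 3 adrenal cortex markers summed to at most 2.01 CPM. A pair of E13.5 libraries stood apart. Wild-type replicate 3 had 18.97% of its counts in haemoglobin genes, against 0.7014% to 1.048% in the other 6 libraries of that age. Cdkn1b -/- replicate 3 was far above the rest in Stra8 and meiotic genes, with Meioc at 133.7 CPM against 2.82 to 13.4 CPM. Its Hbb-y, chosen after its values were seen, was at 372 CPM against 1434 CPM or more. Its 5 erythroid markers, Hbb-y among them, were not low as a sum. They summed to 5316 CPM, against 4046 and 3700 CPM in replicates 1 and 4 and 3376 to 1.044e+05 CPM in wild type. The Stra8 genotype effect at E13.5 is therefore also given without Cdkn1b -/- replicate 3 and without both. The steps of Stra8, Aldh1a1 and Cyp26b1 to E18.5 in Cdkn1b -/- are also given without its replicate 3. In that step no other member gained or lost its call without it. Wild type kept the same 5 called members from E13.5 to E18.5 without its replicate 3.

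The members took different courses over development, also within 1 role. Aldh1a1 rose from 24.7 CPM in wild type at E13.5 to 792 CPM at 12wk, whereas the other synthesis genes had lower means at 12wk (Aldh1a2 44.9 and Aldh1a3 3.75 CPM) than at E13.5 (101 and 10.8 CPM). In wild type Stra8, Rarb and Crabp1 were highest at E13.5 and fell from E13.5 to E18.5. Crabp2 was high at E13.5, low at PND8 and high again at 12wk. Cyp26b1 and Stra6 rose between E18.5 and PND8. None of the 9 genes passed the test for a genotype effect at any age, called meaning a Benjamini-Hochberg adjusted p of at most 0.05 over all genes in edgeR's quasi-likelihood test.

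**Figure D1:**
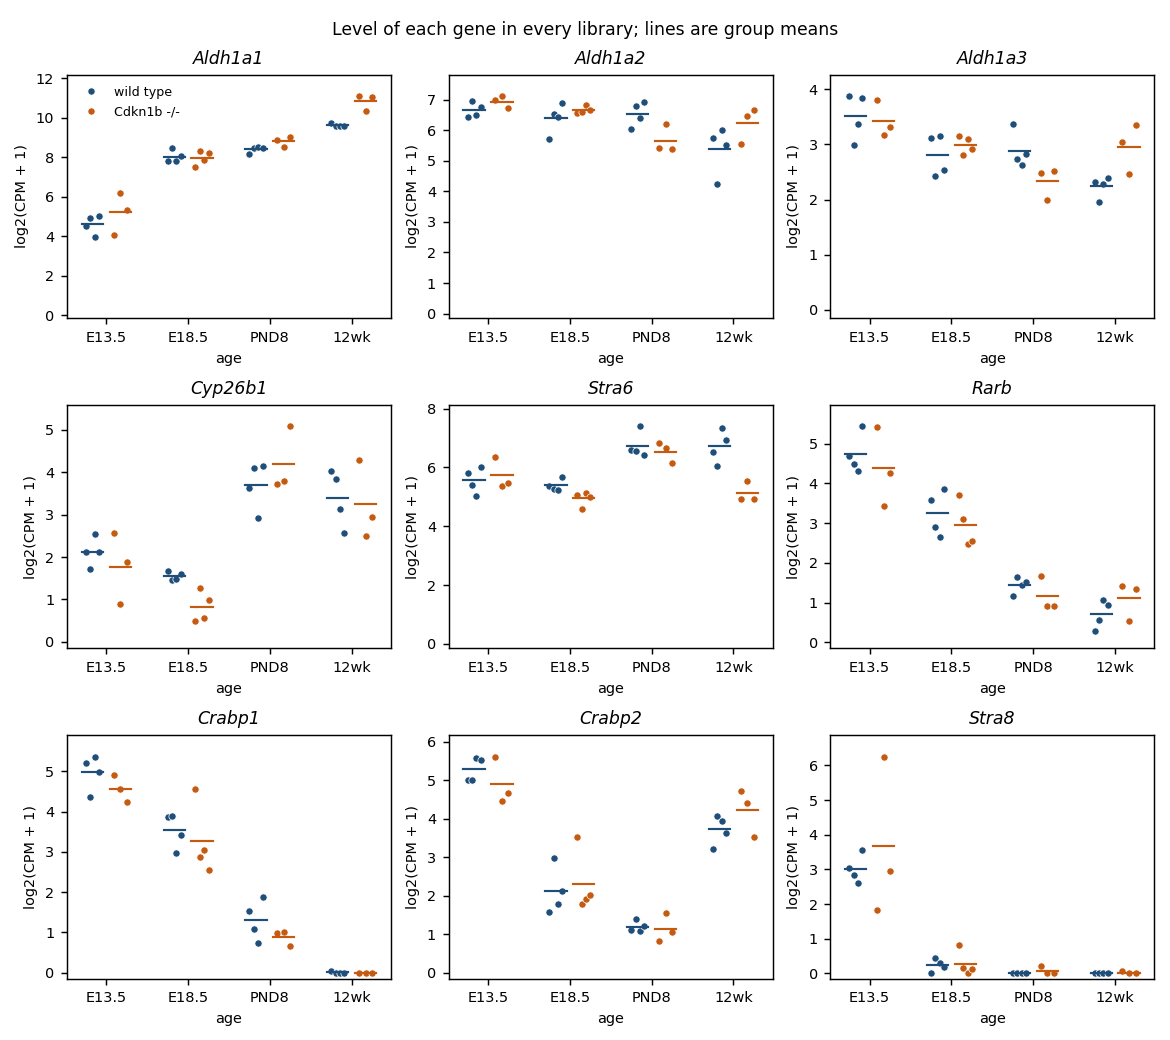
Level of each of the 9 genes as log2(CPM + 1) by age, with 1 point per library (blue wild type, orange Cdkn1b -/-) and a line at each group mean. The Aldh1a1 points lie lowest at E13.5 and highest at 12wk, with E18.5 and PND8 overlapping in wild type, those of Crabp1 lie lower at each age in wild type, Crabp2 dips at PND8, and the Stra8 point at 75.3 CPM is Cdkn1b -/- replicate 3 at E13.5.

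Compared per length (CPM per kb of exon), Aldh1a2 was the highest member in wild type at E13.5 (44.8 ± 7.64, SD, n = 4), followed by Crabp1 (39.5 ± 11.2), and these neighbours did not differ beyond their spread. Crabp2 followed with 29.1 ± 6.47 CPM per kb. Below them Stra6 (8.25 ± 2.53), Rarb (5.10 ± 2.02), Aldh1a1 (5.01 ± 1.60) and Stra8 (4.07 ± 1.40) lay within each other's spread, and Aldh1a3 (2.35 ± 0.70) and Cyp26b1 (0.643 ± 0.197) were lowest. From E18.5 on Aldh1a1 was first and Aldh1a2 second in both genotypes. At E18.5 the wild-type levels of these 2 genes, 54.1 ± 12.3 and 38.4 ± 12.1 CPM per kb, were close to their spread, and by 12wk they were 160.5 ± 10.2 and 19.8 ± 8.61 CPM per kb. At 12wk Aldh1a2 and Stra6 (18.9 ± 7.02) did not differ beyond their spread, and Stra8 and Crabp1 came last.

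Aldh1a1 (ENSMUSG00000053279, GRCm38 chr19:20492715-20643465, plus strand) encodes a cytosolic retinal dehydrogenase. At E13.5 it measured 22.2, 29.9, 14.7 and 32.0 CPM in wild type and 15.8, 73.2 and 39.3 CPM in Cdkn1b -/-, and at E18.5 221, 352.5, 227 and 269 CPM in wild type and 184, 322, 232 and 296 CPM in Cdkn1b -/-. Every E18.5 library was above every E13.5 library, and the genotypes overlapped at both ages. The rise was 10.8-fold in wild type (log2 fold change 3.42, SE 0.26, adjusted p 2.03e-05, edgeR) and 6.05-fold in Cdkn1b -/- (log2 fold change 2.62, SE 0.51, adjusted p 0.00992, edgeR). Without the Cdkn1b -/- replicate 3 at E13.5 the latter was 3.23 (SE 0.45).

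At PND8 Aldh1a1 measured 289.7, 360.1, 367 and 359.6 CPM in wild type and 467, 372 and 520.4 CPM in Cdkn1b -/-, and at 12wk 868, 772, 763 and 768 CPM in wild type and 2180, 1325 and 2127 CPM in Cdkn1b -/-. All Cdkn1b -/- libraries of both ages were above the wild-type ones, by little in replicate 3 at PND8 and by much in all 3 at 12wk. From E18.5 to PND8 it rose in Cdkn1b -/- (log2 fold change 0.74, SE 0.20, adjusted p 0.00844, edgeR), and the wild-type step of 0.28 (SE 0.16) was not called (adjusted p 0.145, edgeR) except without E18.5 replicate 2 (0.47, adjusted p 0.00616, edgeR). From PND8 to 12wk the gene rose 2.30-fold in wild type (log2 fold change 1.28, SE 0.10, adjusted p 7.92e-05, edgeR) and 4.14-fold in Cdkn1b -/- (2.15, SE 0.25, adjusted p 0.0019, edgeR). The genotype difference at 12wk was 2.37-fold (log2 fold change 1.25, SE 0.20) and missed the threshold (unadjusted p 0.000222, adjusted p 0.19, edgeR). It passed without Cdkn1b -/- replicate 3 (log2 fold change 1.47, adjusted p 0.0394, edgeR), without the filter on low counts (adjusted p 0.0309, edgeR) and in DESeq2 (adjusted p 5.3e-07). At PND8 the difference was 1.32-fold (0.38, SE 0.13, adjusted p 0.213, edgeR).

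Aldh1a7, a near-identical neighbour of Aldh1a1 (GRCm38 chr19:20692953-20727562, minus strand), could share reads with it. Aldh1a7 was called higher in Cdkn1b -/- at E18.5, with 21.3, 23.6, 26.7 and 23.6 CPM in wild type and 31.1, 44.0, 33.8 and 36.4 CPM in Cdkn1b -/- (log2 fold change 0.60, SE 0.13, adjusted p 0.0265, edgeR). Its E18.5 groups did not overlap. With the 2 genes summed, the genotype effect at 12wk was 1.25 (SE 0.19, adjusted p 0.19, edgeR), against 1.25 for Aldh1a1 alone. Summing made the rise from E13.5 to E18.5 smaller, with a log2 fold change of 2.73 against 3.42 in wild type and 2.03 against 2.62 in Cdkn1b -/-, and both remained called (adjusted p 5.95e-05 and 0.0122, edgeR).

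Aldh1a2 (ENSMUSG00000013584, chr9:71215789-71296243, plus strand) encodes the main retinoic acid synthetase of the early embryo, also found in mesothelium. At E13.5 it measured 85.4, 123, 89.4 and 108 CPM in wild type and 125, 138 and 104 CPM in Cdkn1b -/-, and at E18.5 51.1, 92.5, 86.2 and 118 CPM against 93.2, 96.5, 112 and 99.96 CPM. Ages and genotypes overlapped across these 4 groups, and none of the tests between them was called, except the Cdkn1b -/- step without E13.5 replicate 4 (-0.37, adjusted p 0.0327, edgeR). At PND8 it was 65.4, 110.1, 83.0 and 121 CPM in wild type and 41.8, 72.3 and 40.6 CPM in Cdkn1b -/-. Replicates 1 and 4 of Cdkn1b -/- lay below all wild-type libraries, and replicate 3 lay among them. The PND8 genotype difference was -0.89 on the log2 scale (SE 0.29, unadjusted p 0.0182, adjusted p 0.232, edgeR) and passed in DESeq2 (adjusted p 0.0129). From E18.5 to PND8 Aldh1a2 fell in Cdkn1b -/- (log2 fold change -1.03, SE 0.20, adjusted p 0.00145, edgeR), while in wild type it changed by 0.04 (SE 0.26, adjusted p 0.894, edgeR).

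At 12wk Aldh1a2 measured 53.2, 17.9, 63.5 and 44.9 CPM in wild type and 46.1, 88.5 and 99.7 CPM in Cdkn1b -/-, with overlap. The wild-type step from PND8 (-1.01, SE 0.35) was not called (adjusted p 0.0608, edgeR), but it was without 12wk replicate 2 or 3 (adjusted p 0.036 and 0.0418, edgeR), in DESeq2 and with all groups in 1 fit. Some of the libraries low in Aldh1a2, but not all, were also low in markers of the surface epithelium and mesothelium. All 7 of these markers were detected, and at PND8 they summed to 558 to 726 CPM in wild type and to 461, 683 and 474 CPM in Cdkn1b -/- replicates 1, 3 and 4. The highest of these sums was that of wild-type replicate 3, which had 83.0 CPM of Aldh1a2. At 12wk the wild-type replicate 2, lowest in Aldh1a2, had a sum of 136 CPM against 301 to 403 CPM in the other 3, and Cdkn1b -/- replicate 1 had 121 CPM against 264 and 325 CPM. Upk3b, a defining gene of that layer, was at 0.0321 CPM in that wild-type library and at 0.0867 CPM in that Cdkn1b -/- library. Wild-type replicate 4, with less Aldh1a2 (44.9 CPM) than that Cdkn1b -/- library (46.1 CPM), had a sum of 301 CPM. None of the 7 markers was called at PND8 or 12wk. Their part in the Aldh1a2 values was not tested.

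Aldh1a3 (ENSMUSG00000015134, chr7:66390890-66427517, minus strand) encodes the third retinal dehydrogenase of the family. It measured 13.7, 6.95, 9.39 and 13.3 CPM in wild type and 12.9, 7.98 and 8.98 CPM in Cdkn1b -/- at E13.5, and 7.64, 4.40, 7.91 and 4.76 CPM against 7.84, 5.96, 7.57 and 6.55 CPM at E18.5. The genotypes overlapped at both ages. At PND8 it was 9.27, 5.66, 5.20 and 6.05 CPM in wild type and 4.55, 2.99 and 4.72 CPM in Cdkn1b -/-, and at 12wk 3.99, 2.88, 3.86 and 4.25 CPM against 7.28, 4.49 and 9.14 CPM. The groups did not overlap at either age, with Cdkn1b -/- lower at PND8 (log2 fold change -0.69, SE 0.26, adjusted p 0.263, edgeR) and higher at 12wk (0.90, SE 0.30, adjusted p 0.441, edgeR), and neither difference was called. From E18.5 to PND8 Aldh1a3 fell in Cdkn1b -/- (-0.84, SE 0.22, adjusted p 0.00582, edgeR), also with any 1 library left out (adjusted p 0.00711 to 0.0267, edgeR). The wild-type step was 0.01 (SE 0.27, adjusted p 0.981, edgeR). The fall from PND8 to 12wk in wild type was called (-0.73, SE 0.24, adjusted p 0.0445, edgeR), but not when any 1 of 7 of the 8 libraries was left out (adjusted p 0.0621 to 0.107, edgeR), PND8 replicate 3 being the exception, nor with the replicate block (adjusted p 0.059, edgeR) or without the filter on low counts (adjusted p 0.0613, edgeR).

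As shares of the summed per-length level of the 3 Aldh1a genes, Aldh1a2 made up 85.9% ± 2.75 (SD, n = 4) in wild type at E13.5 and Aldh1a1 9.46% ± 1.98. The Aldh1a1 share of wild type was 58.0% ± 6.99 at E18.5 and 62.1% ± 4.53 at PND8, and it was highest at 12wk, with 88.8% ± 4.40 (n = 4 each). Wild-type libraries of E18.5 and PND8 overlapped in this share, and those of the other ages did not. The Aldh1a1 share in Cdkn1b -/- before birth was 12.9% ± 7.07 at E13.5 (n = 3) and 52.8% ± 6.57 at E18.5 (n = 4). After birth it was 79.2% ± 8.17 at PND8 and 90.9% ± 4.15 at 12wk (n = 3 each). At PND8 the Cdkn1b -/- shares (69.8% to 84.8%) lay above the wild-type ones (57.1% to 66.3%), and this difference was not tested. The summed level at 12wk was 181 ± 14.8 CPM per kb in wild type (n = 4) and 416 ± 93.6 CPM per kb in Cdkn1b -/- (n = 3).

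**Figure D2:**
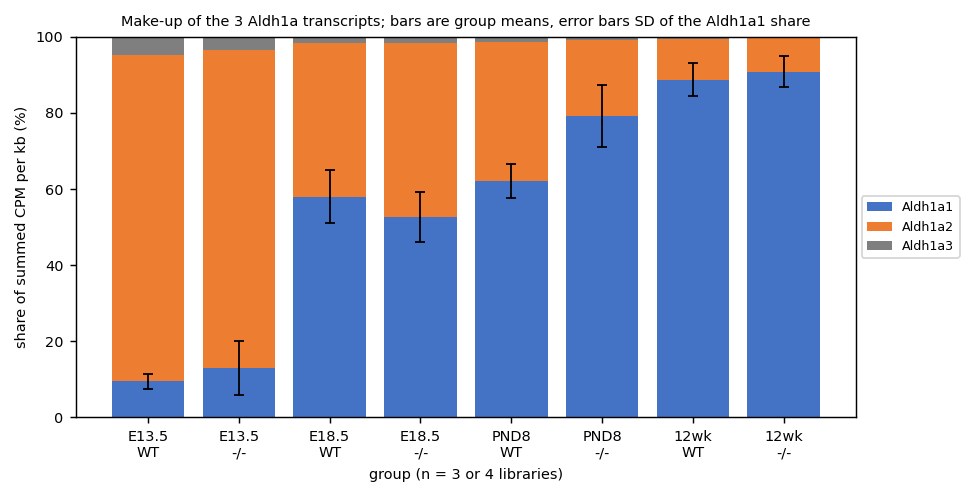
Mean share (%) of Aldh1a1, Aldh1a2 and Aldh1a3 in their summed CPM per kb for the 8 groups, with the SD of the Aldh1a1 share as error bars. Aldh1a2 makes up most of the sum at E13.5 (85.9% in wild type) and Aldh1a1 at 12wk (88.8% in wild type).

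Cyp26b1 (ENSMUSG00000063415, chr6:84571414-84593908, minus strand), the retinoic acid hydroxylase, was low before birth. It measured 3.32, 2.30, 4.85 and 3.31 CPM in wild type and 4.91, 0.856 and 2.66 CPM in Cdkn1b -/- at E13.5, where the groups overlapped and Cdkn1b -/- replicate 3 was lowest. At E18.5 it was 2.17, 1.74, 1.78 and 2.05 CPM in wild type and 0.400, 1.41, 0.473 and 0.990 CPM in Cdkn1b -/-. The E18.5 groups did not overlap, and the difference of -1.26 on the log2 scale (SE 0.41, unadjusted p 0.01) was not called (adjusted p 0.101, edgeR). At PND8 it was 11.3, 16.0, 6.60 and 16.7 CPM in wild type and 12.2, 12.8 and 32.8 CPM in Cdkn1b -/-, and at 12wk 15.2, 13.4, 7.82 and 4.91 CPM against 18.3, 4.68 and 6.65 CPM. Each PND8 library was above every E18.5 library, with genotypes overlapping after birth. The step from E18.5 to PND8 was 2.63 in wild type (SE 0.31, adjusted p 2.19e-05, edgeR) and 4.51 in Cdkn1b -/- (SE 0.52, adjusted p 4.94e-05, edgeR). The fall from E13.5 to E18.5 in Cdkn1b -/- was not called (-1.76, adjusted p 0.0643, edgeR), but it was without replicate 3 at E13.5 (-2.21, adjusted p 0.0189, edgeR). DESeq2, the fit without the filter on low counts and all groups in 1 fit called it too. In wild type this step, with no overlap between the ages, was not called (-0.84, SE 0.32, adjusted p 0.0645, edgeR). The wild-type step passed without E13.5 replicate 2 (adjusted p 0.0468, edgeR) and in DESeq2.

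Stra6 (ENSMUSG00000032327, chr9:58063788-58153996, plus strand) encodes the membrane receptor for retinol-binding protein. At E13.5 it measured 55.4, 41.0, 31.4 and 64.5 CPM in wild type and 81.8, 40.1 and 43.6 CPM in Cdkn1b -/-, with overlap. At E18.5 it was 40.4, 37.9, 36.8 and 50.5 CPM in wild type and 32.6, 23.1, 34.4 and 30.9 CPM in Cdkn1b -/-. All 4 Cdkn1b -/- libraries were below the wild-type ones, by -0.46 on the log2 scale (SE 0.15, unadjusted p 0.0109, adjusted p 0.107, edgeR), which was not called. Beside it, 2 of 7 stroma and theca markers were called lower at E18.5, where 1.67% of all genes were. These were Tcf21 (-0.78, adjusted p 0.0456, edgeR) and Nr2f2 (-0.52, adjusted p 0.0436, edgeR). The list summed to 1144 to 2529 CPM in wild type and 1153 to 1746 CPM in Cdkn1b -/-. Of 8 granulosa lineage markers, 7 of them tested, 2 were called higher at E18.5, where 3.32% of all genes were. Those tested had a median log2 fold change of -0.11. The granulosa list summed to 294 to 371.5 CPM in wild type and 263 to 344 CPM in Cdkn1b -/-. The part of either list in the E18.5 Stra6 and Cyp26b1 values was not tested.

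At PND8 Stra6 was 96.1, 93.1, 167 and 84.0 CPM in wild type and 113, 99.8 and 69.6 CPM in Cdkn1b -/-. In Cdkn1b -/- the fall from E13.5 to E18.5 was called (-0.85, SE 0.26, adjusted p 0.0414, edgeR), but not with the replicate block (-0.66, adjusted p 0.0741, edgeR), nor without E13.5 replicate 1 or any 1 of the 4 E18.5 replicates (adjusted p 0.0613 to 0.0999, edgeR), nor without the filter on low counts (adjusted p 0.1, edgeR). It rose from E18.5 to PND8 by 1.33 in wild type (SE 0.21, adjusted p 0.000226, edgeR) and by 1.57 in Cdkn1b -/- (SE 0.18, adjusted p 2.93e-05, edgeR), with no overlap between the ages. At 12wk it was 91.7, 65.7, 161 and 122 CPM in wild type and 29.4, 45.3 and 29.7 CPM in Cdkn1b -/-. Every Cdkn1b -/- library at 12wk lay under every wild-type one, and the wild-type mean was 3.16 times the other (log2 fold change -1.67, SE 0.31, unadjusted p 0.000761). That difference was not called (adjusted p 0.27, edgeR), and it passed with all groups in 1 fit (adjusted p 0.0185, edgeR), with the replicate block (adjusted p 0.0497, edgeR) and in DESeq2 (adjusted p 3.06e-05). Within Cdkn1b -/- Stra6 fell from PND8 to 12wk (-1.35, SE 0.22, adjusted p 0.00634, edgeR), and in wild type the step was 0.08 (SE 0.30, adjusted p 0.874, edgeR). The 8 granulosa lineage markers, all detected, summed to 2332 to 2989 CPM in wild type and 1236 to 2165 CPM in Cdkn1b -/- at 12wk, and none of the 8 was called there. Their part in the 12wk Stra6 and Aldh1a1 values was not tested.

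Crabp1 (ENSMUSG00000032291, chr9:54764748-54773110, plus strand) encodes a cytoplasmic protein that binds retinoic acid. It measured 36.1, 19.7, 40.4 and 30.5 CPM in wild type and 29.2, 22.5 and 17.8 CPM in Cdkn1b -/- at E13.5, and 13.5, 14.0, 6.85 and 9.65 CPM against 22.6, 6.38, 7.28 and 4.86 CPM at E18.5. All wild-type libraries were lower at E18.5 than at E13.5 (log2 fold change -1.54, SE 0.28, adjusted p 0.00226, edgeR), while Cdkn1b -/- replicate 1 at E18.5 kept within the E13.5 range and that step was not called (-1.15, SE 0.52, adjusted p 0.138, edgeR). It was called with the replicate block (-1.25, SE 0.30, adjusted p 0.0209, edgeR), without E18.5 replicate 1 (-1.88, adjusted p 0.00176, edgeR) and in DESeq2 (adjusted p 0.0322). At PND8 it was 1.87, 1.11, 0.674 and 2.71 CPM in wild type and 0.993, 0.997 and 0.578 CPM in Cdkn1b -/-. The PND8 values were under all E18.5 values, a fall of -2.87 in wild type (SE 0.43, adjusted p 0.000134, edgeR) and -3.63 in Cdkn1b -/- (SE 0.60, adjusted p 0.000497, edgeR).

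By 12wk Crabp1 was at the floor, with 1 count over the 4 wild-type libraries and 0 counts over the 3 Cdkn1b -/- libraries. From PND8 to 12wk the pooled wild-type ratio was 193 (exact 95% counting interval 34.3 to 7657). Against a floor of 3 counts over the group, the Cdkn1b -/- level was 24.8-fold lower at 12wk, with an exact 95% lower counting limit of 19.75. Both falls were called (adjusted p 0.000594 and 0.00498, edgeR). These intervals cover counting error only.

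Crabp2 (ENSMUSG00000004885, chr3:87948666-87953376, plus strand) encodes the related protein that hands retinoic acid to nuclear receptors. At E13.5 it measured 31.0, 31.1, 47.0 and 44.7 CPM in wild type and 47.9, 20.8 and 24.3 CPM in Cdkn1b -/-, and at E18.5 1.96, 6.91, 2.46 and 3.34 CPM against 10.6, 2.46, 2.79 and 3.06 CPM. All E18.5 libraries were below all E13.5 ones, and Cdkn1b -/- replicate 1 was highest at E18.5. The fall was 10.5-fold in wild type (log2 fold change -3.40, SE 0.38, adjusted p 0.00015, edgeR) and 6.57-fold in Cdkn1b -/- (-2.69, SE 0.59, adjusted p 0.0135, edgeR), the latter not called without the filter on low counts (adjusted p 0.0624, edgeR). At PND8 it was 1.16, 1.65, 1.10 and 1.31 CPM in wild type and 0.785, 1.91 and 1.09 CPM in Cdkn1b -/-, and at 12wk 8.35, 15.9, 14.3 and 11.4 CPM against 25.4, 20.1 and 10.6 CPM. From E18.5 to PND8 it fell by 1.57 in wild type (SE 0.41, adjusted p 0.00515, edgeR) and by 1.97 in Cdkn1b -/- (SE 0.59, adjusted p 0.0131, edgeR), the latter not called without PND8 replicate 1 (adjusted p 0.0544, edgeR). Every 12wk library was above every PND8 library in both genotypes. The rise was 9.57-fold in wild type (3.33, SE 0.25, adjusted p 7.69e-05, edgeR) and 14.8-fold in Cdkn1b -/- (3.97, SE 0.45, adjusted p 0.00195, edgeR), and the 12wk genotype difference of 0.57 (SE 0.31) was not called (adjusted p 0.606, edgeR).

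Rarb (ENSMUSG00000017491, chr14:16430839-16819156, minus strand) encodes retinoic acid receptor beta. It measured 24.7, 21.4, 18.9 and 42.4 CPM in wild type and 42.2, 9.89 and 18.1 CPM in Cdkn1b -/- at E13.5, and 11.1, 6.55, 5.30 and 13.6 CPM against 12.0, 7.58, 4.59 and 4.86 CPM at E18.5. Wild-type libraries of the 2 ages did not overlap, whereas in Cdkn1b -/- replicate 3 at E13.5 lay within the E18.5 range. The fall was 2.94-fold in wild type (log2 fold change -1.57, SE 0.34, adjusted p 0.00576, edgeR) and 3.22-fold in Cdkn1b -/- (-1.67, SE 0.53, adjusted p 0.0499, edgeR). The latter call was lost without E13.5 replicate 1 (-0.93, adjusted p 0.141, edgeR) or 4 (-1.83, adjusted p 0.0779) and without E18.5 replicates 2, 3 or 4 (adjusted p 0.111 to 0.12, edgeR), and without the filter on low counts (adjusted p 0.167, edgeR).

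At PND8 Rarb was 1.26, 2.14, 1.70 and 1.87 CPM in wild type and 2.19, 0.880 and 0.899 CPM in Cdkn1b -/-, below every E18.5 library. The step from E18.5 was -2.47 in wild type (SE 0.34, adjusted p 6.84e-05, edgeR) and -2.50 in Cdkn1b -/- (SE 0.46, adjusted p 0.000698, edgeR). At 12wk it was 0.230, 0.481, 1.077 and 0.912 CPM in wild type and 1.69, 0.454 and 1.56 CPM in Cdkn1b -/-, with overlap, and neither step from PND8 was called (-1.29, adjusted p 0.0557 in wild type, and -0.02, adjusted p 0.986 in Cdkn1b -/-, edgeR). The wild-type step passed without 12wk replicate 3 (-1.61, adjusted p 0.0323, edgeR) and in DESeq2. At E13.5 the libraries highest in Rarb, wild-type replicate 4 and Cdkn1b -/- replicate 1, were also highest in Pax8 (59.0 and 76.4 CPM, against 26.7 to 42.4 CPM in the other 5), a marker of the mesonephros and rete chosen after its values were seen. All 7 markers of that list were detected at E13.5, and they summed to 219, 296, 147 and 242 CPM in wild type and to 357, 230 and 208 CPM in Cdkn1b -/-. The sum was highest in Cdkn1b -/- replicate 1, the highest of that genotype in Rarb, but in wild type it was highest in replicate 2 and not in replicate 4. Their part in the Rarb values was not tested. In GENCODE M21, 1793 of 5265 exon bases of Rarb lie opposite exons of Top2b, a topoisomerase gene at 82.5 to 265 CPM, and 227 opposite the antisense gene Gm48162. Strandedness of the libraries is not given in the sources used here, so reads of these genes may not be told apart.

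Stra8 (ENSMUSG00000029848, chr6:34920163-34939344, plus strand) was found mainly at E13.5. It measured 7.28, 6.11, 5.08 and 10.9 CPM in wild type and 2.58, 75.3 and 6.75 CPM in Cdkn1b -/-. Of the 3 Cdkn1b -/- libraries, replicate 1 was the lowest of all 7, replicate 3 the highest and replicate 4 among the wild-type values. The genotype effect was 1.89 on the log2 scale (SE 0.95, adjusted p 0.989, edgeR), and without Cdkn1b -/- replicate 3 it turned to -0.68 (SE 0.47, adjusted p 1, edgeR). With both E13.5 replicates 3 left out, an alternative added after the data were seen, it was -0.77 (SE 0.47).

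Of 9 genes of meiotic entry and prophase, none was called between genotypes at E13.5 (edgeR), with 2 at an unadjusted p under 0.05. The following 3 were chosen after their values were seen. Meioc, which promotes meiotic prophase, was at 2.82, 133.7 and 10.3 CPM in Cdkn1b -/- replicates 1, 3 and 4 and at 6.62 to 13.4 CPM in wild type. Rec8, a meiotic cohesin, was at 33.2, 116.5 and 47.5 CPM, against 32.9 to 54.5 CPM in wild type. Sycp3, of the synaptonemal complex, was at 9.32, 95.6 and 25.1 CPM, against 11.7 to 13.5 CPM. Replicate 3 was highest and replicate 1 at or near the lowest in each, while replicate 4 lay among wild type in Meioc and Rec8 and above it in Sycp3. The 8 germ cell markers summed to 329.6, 890 and 801 CPM in Cdkn1b -/- replicates 1, 3 and 4 and to 447 to 642 CPM in wild type, and the part of germ cell number in these values was not tested. Ttr and Rbp4, a carrier of thyroid hormone and the plasma carrier of retinol, were also highest in replicate 3, at 9.26 and 35.4 CPM against at most 0.77 and 6.62 CPM.

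**Figure D3:**
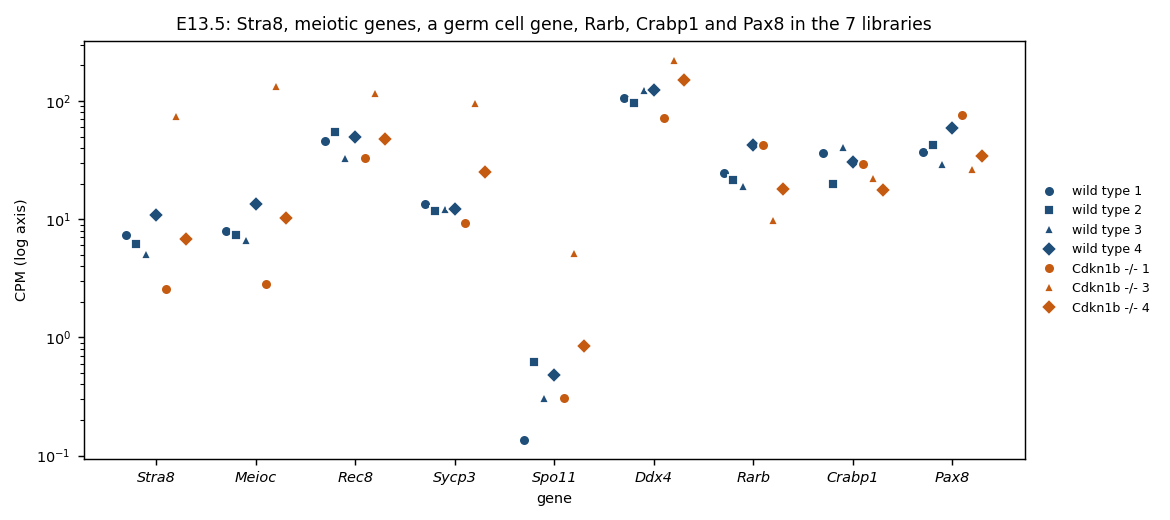
CPM on a log axis for 9 genes in the 7 libraries of E13.5, with colour for genotype and symbol for replicate number. Cdkn1b -/- replicate 3 stands highest in Stra8 (75.3 CPM), Meioc (133.7 CPM), Rec8, Sycp3, Spo11 and the germ cell gene Ddx4, while it is lowest in Rarb (9.89 CPM) and Pax8 (26.7 CPM).

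After E13.5 Stra8 was near or under the floor. At E18.5 it was 0, 0.358, 0.241 and 0.125 CPM in wild type and 0.760, 0.105, 0 and 0.0943 CPM in Cdkn1b -/-, with overlap. The fall in wild type was -5.31 (SE 0.62, adjusted p 0.000195, edgeR), with 582 counts pooled at E13.5 and 15 at E18.5, and the pooled ratio was 39.9 (exact 95% counting interval 24.0 to 71.7). In Cdkn1b -/- it was -6.71 (SE 1.58, adjusted p 0.0229, edgeR), and -4.17 (SE 1.02, adjusted p 0.0228, edgeR) without replicate 3 at E13.5. With the replicate block this call was lost (-5.38, adjusted p 0.239, edgeR). Leaving out E18.5 replicate 2, 3 or 4 also lost the Stra8 call (adjusted p 0.0566 to 0.0669, edgeR), as did testing without the filter on low counts (adjusted p 0.0642, edgeR). At PND8 and 12wk wild type had 0 counts. Against 3 counts over the group, its level was 413-fold and 359-fold lower than at E13.5, with exact 95% lower counting limits of 334.5 and 290.8. Libraries of Cdkn1b -/- held 7 counts at PND8 and 1 count at 12wk, all in replicate 1, and the genotype effect after E13.5 was not tested because the gene did not pass the filter on low counts.

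In the genotype comparisons, the count of called members was 0 of 9 tested at E13.5, 0 of 8 tested at E18.5, 0 of 8 tested at PND8 and 0 of 7 tested at 12wk. Over all genes, 0.00606%, 4.99%, 0.349% and 0.0115% were called, so at 3 of the 4 ages few genes of any kind passed. At an unadjusted p under 0.05 there were 0, 2, 3 and 3 members (edgeR quasi-likelihood), against 3.49%, 22.1%, 15% and 9.63% of all genes. DESeq2 called 0, 0, 1 and 2 members, and 65, 1685, 824 and 326 genes in all. Groups did not overlap for 0, 2, 2 and 3 of the 9 members, against 3.74%, 14.8%, 14.5% and 8.72% of all genes tested. The genotype by age interaction was called for 0 of 9 members, against 0.806% of all genes, and 4 had an unadjusted p under 0.05, against 12.7% of all genes. Its smallest p was that of Stra6 (adjusted p 0.103, edgeR), which passed without 12wk wild-type replicate 2 (adjusted p 0.0407, edgeR) and in DESeq2 (adjusted p 0.00875), as did Aldh1a3 in DESeq2.

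**Figure D4:**
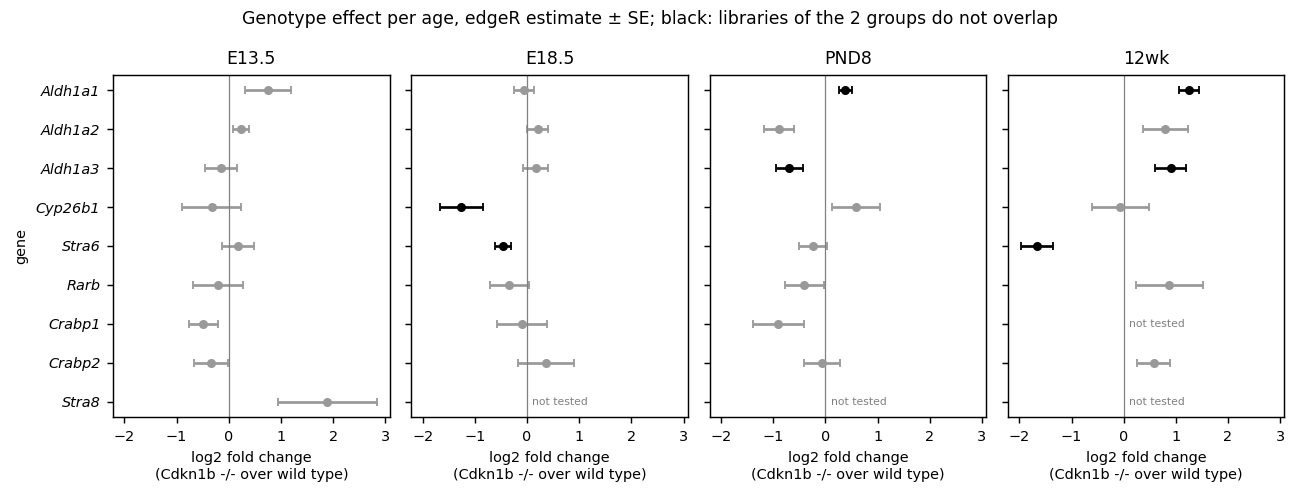
Estimated log2 fold change (Cdkn1b -/- over wild type) with its SE for the 9 genes at 4 ages, black where the libraries of the groups do not overlap. The black points are Cyp26b1 and Stra6 at E18.5, Aldh1a1 and Aldh1a3 at PND8, and Aldh1a1, Aldh1a3 and Stra6 at 12wk. None of these passed adjustment over all genes.

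Between ages many genes changed, which is the background for the members' counts. From E13.5 to E18.5, 1 member rose and 4 fell of 9 tested in wild type, where 16.6% of all genes rose and 17.5% fell, and 1 rose and 4 fell in Cdkn1b -/-, where 15.8% rose and 14.5% fell. From E18.5 to PND8, 2 rose and 3 fell of 8 in wild type (37.6% and 36.9% of all genes), and 3 rose and 5 fell of 8 in Cdkn1b -/- (38.9% and 38.5%). From PND8 to 12wk, 2 rose and 2 fell of 8 in wild type (16.1% and 14.3% of all genes), and 2 rose and 2 fell of 8 in Cdkn1b -/- (14.8% and 14.3%). The median log2 fold change of the members tested was -0.84, 0.02 and -0.48 in wild type over the 3 steps, against 0.01, 0.01 and -0.01 over all genes.

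Among 69 other genes of the pathway and of meiotic entry, the genotype effect was called for 0 of 57 tested at E13.5, 6 of 55 at E18.5, 1 of 53 at PND8 and 0 of 48 at 12wk. Of the 6 at E18.5, 3 were higher and 3 lower, where 3.32% and 1.67% of all genes were, and the list's median log2 fold change was -0.18 against -0.04 over all genes. Rbp4, the plasma carrier of retinol, measured 23.9, 21.6, 31.0 and 34.3 CPM in wild type and 13.0, 12.3, 13.1 and 13.5 CPM in Cdkn1b -/- at E18.5 (log2 fold change -1.11, SE 0.16, adjusted p 0.00368, edgeR). Rec8 was at 74.7, 59.4, 87.5 and 62.1 CPM against 31.5, 23.2, 29.0 and 27.5 CPM (-1.36, SE 0.15, adjusted p 0.00105, edgeR), and Ezh2, a histone methyltransferase of Polycomb, was higher (0.54, SE 0.11, adjusted p 0.0211, edgeR). The groups of these 3 genes did not overlap. Rec8 was also the 1 gene called at PND8, with 6.38, 14.2, 12.5 and 12.9 CPM in wild type and 4.13, 3.34 and 3.24 CPM in Cdkn1b -/- (-1.70, SE 0.27, adjusted p 0.0473, edgeR).

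The interaction with age was called for 3 of 61 of these genes, Rarres2, Lrat and Rec8, against 0.806% of all genes. Rarres2, a retinoid-responsive gene that encodes chemerin, measured 79.4, 90.0, 66.3 and 92.9 CPM in wild type and 50.6, 49.7 and 52.7 CPM in Cdkn1b -/- at PND8, and 58.9, 56.1, 74.2 and 78.5 CPM against 177, 131 and 184 CPM at 12wk. Cdkn1b -/- was lower in all libraries at PND8 (-0.70, SE 0.12, adjusted p 0.0531, edgeR) and higher in all at 12wk (1.29, SE 0.18, adjusted p 0.144, edgeR), and the interaction had an adjusted p of 0.000389 (edgeR). Lrat, which esterifies retinol for storage, measured 1.12, 2.98, 1.89 and 2.52 CPM in wild type and 0.208, 0.293 and 0.514 CPM in Cdkn1b -/- at PND8, and 12.9, 5.61, 16.7 and 10.2 CPM against 35.4, 16.7 and 36.3 CPM at 12wk. The Cdkn1b -/- libraries were below wild type at PND8 and above it at 12wk, and the interaction had an adjusted p of 0.0092 (edgeR). Rarres2 and Lrat thus ran in the direction of Aldh1a3 at both ages, an observation made on 3 genes after their values were seen.

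Over age, 29 of 56 listed genes tested changed in wild type from E13.5 to E18.5 (15 up, 14 down), 48 of 55 from E18.5 to PND8 (21 up, 27 down) and 25 of 51 from PND8 to 12wk (8 up, 17 down), where 34%, 74.6% and 30.5% of all genes did. In Cdkn1b -/- the counts were 24 of 58 (9 up, 15 down), 50 of 56 (22 up, 28 down) and 23 of 49 (8 up, 15 down), against 30.2%, 77.4% and 29.1% of all genes. While Stra8 fell from E13.5 to E18.5 in wild type, 7 of 9 genes of meiotic entry and prophase rose, where 16.6% of all genes did, among them Sycp3 (log2 fold change 4.96, SE 0.31), Spo11, which cuts DNA for recombination (5.41, SE 0.38), and Sycp1 (4.95, SE 0.39). Their median log2 fold change was 1.43. In Cdkn1b -/-, where replicate 3 at E13.5 was high in several of them, 1 of the 9 rose and 1 fell, with a median of 0.07, and the difference between genotypes in this step was not tested. Dmrt1, which acts on Stra8 in fetal germ cells, fell by 4.01 in wild type and by 4.52 in Cdkn1b -/-. From E18.5 to PND8 all 4 other receptors tested and all 6 receptor cofactors rose in both genotypes, while Rarb fell, in a step where 37.6% of all genes rose in wild type and 38.9% in Cdkn1b -/-, with Rxra at 2.25 (SE 0.10) in wild type and Rxrb at 2.09 (SE 0.09) in Cdkn1b -/-.

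In the same step in wild type, Dhrs3, which turns retinal back to retinol, fell by 2.57 (SE 0.13), Hormad1 by 9.62 (SE 0.35) and Meioc by 7.20 (SE 0.31), and the transcriptional repressor E2f6 rose in Cdkn1b -/- by 2.37 (SE 0.09). From PND8 to 12wk in wild type, Adh1, a retinol-oxidising alcohol dehydrogenase, rose by 3.29 (SE 0.28), and Rbp4 fell by 3.11 (SE 0.37), Rarres1 by 5.49 (SE 0.69) and Smc1b, a meiotic cohesin, by 4.33 (SE 0.53). In Cdkn1b -/- over that step Rarg, another receptor, rose by 2.22 (SE 0.09), Lrat by 6.57 (SE 0.50) and Rarres2 by 1.78 (SE 0.16), while Smc1b fell by 4.52 (SE 0.37). From E13.5 to E18.5 in Cdkn1b -/-, Lrat rose by 4.00 (SE 0.52), the coactivator Ncoa1 rose by 1.94 (SE 0.26) and Rarres1 fell by 1.55 (SE 0.20). Changes in these paragraphs on age are log2 fold changes and had adjusted p of at most 0.00106 (edgeR).

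The genes most like each member over the 29 libraries, by Pearson's r on log2(CPM + 1), are given as a description over libraries that share ages. For Stra8 they were Tuba3b (r = 0.97), Cdx2 (0.95), Afp (0.94), Tuba3a (0.93) and Setd6 (0.93) among 29 libraries. Without Cdkn1b -/- replicate 3 at E13.5, over 28 libraries, the first 5 were Phlda2, Calcoco2, Foxh1, Tuba3b and Nanog (r 0.97 to 0.98), and Afp was at rank 80 and Setd6 at rank 116. Aldh1a1 was most like Clu (0.96) and Echdc3 (0.96), Aldh1a2 like Cldn15 (0.87) and Stum (0.87), and Aldh1a3 like Gng2 (0.80) and Itga8 (0.80). Cyp26b1 was most like Ctbp2 (0.91) and Trmt1 (0.91), and Stra6 like Dcaf7 (0.84) and Sdc1 (0.84). Rarb was most like Grik1 (0.97) and Klk8 (0.97), Crabp1 like Pax8 (0.97) and Klk8 (0.97), and Crabp2 like Asb4 (0.94) and Sncg (0.90).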

How the data were processed

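RNA sequencing of mouse ovaries was analysed from a deposited table of expected counts per gene for 29 libraries (51912 gene IDs, 51633 with a symbol). Per the submitters' processing notes, the authors used STAR 2.5.2, RSEM 1.3.0, FastQC 0.11.5 and Trim Galore. The genome build and strandedness are not given in the sources used here. Among values above 0, 31.36% were not whole, and all were rounded. Depth ran from 14095601 to 48213177 counts per library, which sets the floor of 3 counts, and arms of 3 or 4 libraries limit the precision.

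Groups came from the labels. Low genes were removed with filterByExpr at a minimum count of 10 and a total of 15, libraries were scaled by TMM, and each comparison was tested in R 4.3.3 by the robust quasi-likelihood test of edgeR 4.0.16, with Benjamini-Hochberg adjustment over all genes tested and a threshold of 0.05. The SE is the log2 fold change over the square root of F. Levels are CPM with TMM over all libraries, per kb of GENCODE M21 exon length where genes were compared. The procedure was tested on simulated counts with the same spread for all genes and no library that stood apart, unlike these data. Members and lists were chosen with earlier results of these data known. Named genes were the 9 members, up to 4 called genes of the pathway list with the smallest p per comparison, the 5 most like Stra8 and the 2 most like each other member (13767 genes, pseudocount 1), Cdkn1b and Aldh1a7. A gene that this rule names is not reported here. Genes named beside Stra8 at E13.5 and as markers were chosen after their values were seen. Of 70 listed pathway symbols, 69 matched the table.

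Alternatives were RLE size factors, no filter, DESeq2 1.42.0, the replicate number as a block, all groups in 1 fit, Aldh1a1 and Aldh1a7 summed, each library left out, and, chosen after the data were seen, both E13.5 replicates 3 left out. No pair of libraries agreed within sampling noise. Same-numbered libraries deviated together, with every correlation over 0.1, in the genotype comparison at E18.5 (0.101 to 0.285). They also did so from E13.5 to E18.5 in Cdkn1b -/- (0.183 to 0.214). This is a hint of pairing from the data and not from the labels. The reported fits were unpaired, and the number entered only as the replicate block among the alternatives.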

Additional observations from a re-analysis of the deposited data

Results flagged for a closer look

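In 77 groups of 4 libraries over 16 genes, 7 held a library far from the other 3 by Dixon's criterion, where chance gives about 1 in 20. In Cdkn1b -/- at E18.5, replicate 1 was high in Stra8 (0.760 CPM, the others 0 to 0.105), Crabp1 (22.6 CPM, the others 4.86 to 7.28) and Crabp2 (10.6 CPM, the others 2.46 to 3.06). In wild type, Aldh1a1 was low in PND8 replicate 1 (289.7 CPM, the others 359.6 to 367) and high in 12wk replicate 1 (868 CPM, the others 763 to 771). Stra6 was high in PND8 wild-type replicate 3 (167 CPM, the others 84.0 to 96.1). Cdkn1b was high in E18.5 wild-type replicate 1 (123 CPM, the others 95.2 to 97.7).

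The genotype effect differed between ages by the interaction test of edgeR for Rarres2 (adjusted p 0.000389), Cdkn1b (adjusted p 0.00427), Lrat (adjusted p 0.0092) and Rec8 (adjusted p 0.0304).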

How the results depend on the processing

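Over 49 fold changes of members (called, or at an unadjusted p of at most 0.05, or called under an alternative, and Stra8), 613 values under alternatives were computed: 554 kept direction and side of the threshold, 29 lost the call, 28 gained it and 2 turned, both Stra8 at E13.5 (-0.68 without Cdkn1b -/- replicate 3, and -0.77 with both replicates 3 left out). With 1 library left out that value ran from -0.68 to 2.43. Members called for genotype were 0 in the reported fits. At PND8 DESeq2 called 1, and at 12wk the fit without a filter called 1, DESeq2 2, the replicate block 1 and all groups in 1 fit 1. For the interaction DESeq2 called 2. From E13.5 to E18.5 in Cdkn1b -/-, 2 were called without the filter, against 5. With 1 library left out, members called for genotype were 0 to 0 at E13.5, E18.5 and PND8, 0 to 1 at 12wk and 0 to 1 for the interaction. The counts over the 3 age steps were 5 to 7, 5 to 6 and 3 to 5 in wild type and 2 to 6, 7 to 8 and 4 to 5 in Cdkn1b -/-. The causes were not tested.

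Over all genes, genotype calls were 1 at E13.5 (65 in DESeq2, 59 with all groups in 1 fit), 814 at E18.5 (1685 in DESeq2, 937 with the replicate block) and 62 at PND8. At PND8 DESeq2 called 824, the fit without a filter 258, the replicate block 8 and all groups in 1 fit 0. At 12wk the count was 2, against 326 in DESeq2, 68 with all groups in 1 fit, 12 without a filter and 10 with the replicate block, and the interaction count was 164 against 706 in DESeq2. With 1 library left out the counts were 246 to 1372 at E18.5, 0 to 147 at PND8, 0 to 3 at 12wk and 72 to 235 for the interaction. Depth limits Stra8 after E13.5 and Crabp1 at 12wk, which lie near 3 counts.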
